A study of Rattus norvegicus with 16 samples.

Results

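Catalase, the superoxide dismutases and the glutathione peroxidases are the enzymes with which mammalian cells remove superoxide and peroxides. Their genes were taken from the count table by symbol, as Cat, Sod1, Sod2, Sod3, Gpx1, Gpx2, Gpx3, Gpx4, Gpx7 and Gpx8, and all 10 were present among the 32623 genes of the table. Superoxide dismutases turn superoxide into hydrogen peroxide and oxygen, with copper and zinc in the cytosolic enzyme (Sod1) and the extracellular enzyme (Sod3) and with manganese in the mitochondrial enzyme (Sod2). Catalase breaks hydrogen peroxide down in peroxisomes, and glutathione peroxidases reduce hydrogen peroxide or lipid peroxides, mostly with glutathione as the electron donor. The proteins of Gpx1, Gpx2, Gpx3 and Gpx4 carry selenocysteine in the active site, whereas those of Gpx7 and Gpx8 use cysteine and reside in the endoplasmic reticulum, and the proximal tubule of the kidney is known for many peroxisomes and for making the secreted Gpx3 of blood plasma. In the rat genome rn6, Cat lies on chromosome 3, Sod1 on 11, Sod2 on 1, Sod3 on 14, Gpx1 on 8, Gpx2 on 6, Gpx3 on 10, Gpx4 on 7, Gpx7 on 5 and Gpx8 on 2.

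RNA was sequenced from NRK-52E and NRK-49F cells, rat kidney lines labelled as epithelial and as fibroblast cells, which shared a medium in indirect co-culture with NRK-52E on filter inserts above NRK-49F. After 24 h without serum, the cells were kept for 48 h at a medium pH of 7.4, the control, or 6.0, the acidosis condition, and the lines were then processed separately. The sample labels write these values as pH 7 and pH 6, while the protocol and the methods of the study give 7.4 and 6.0. Each combination of cell line and pH has 4 libraries of poly(A)-enriched RNA, named N1, N2, N5 and N6 (NRK-52E, pH 7.4), N3, N4, N7 and N8 (NRK-52E, pH 6.0), N9, N10, N13 and N14 (NRK-49F, pH 7.4) and N11, N12, N15 and N16 (NRK-49F, pH 6.0). Nothing says that libraries of a group come from separate cultures, so p-values measure the spread between these samples, which may be technical. The column names also hold a number whose meaning is not given, 21 or 22 in NRK-52E and 20 or 21 in NRK-49F, shared by 2 libraries of each pH. Values within each number are given beside the main results.

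The counts of a library summed to between 16201084 and 34784862. Levels are given in FPM, the counts of a gene relative to the library total after scaling by TMM, a method that takes most genes as unchanged. A gene was called different when its false discovery rate (FDR) was below 0.01 in both edgeR and DESeq2 with the same sign, and the log2 fold changes, standard errors (SE) and adjusted p-values given are those of edgeR. The 5 comparisons, the pH effect in each line, the difference between lines at each pH and the difference between the pH effects, share libraries. The exact two-sided permutation test of 4 against 4 libraries on log2(FPM + 1) cannot give a p below 0.0286, and it gave this value wherever the groups did not overlap. Levels are compared between groups for the same gene and not between genes, since FPM values are not divided by transcript length. Gpx3 had at most 8 counts in a library, passed the filter on low counts in none of the comparisons and was not tested by the model. Over all genes with at least 10 counts in a pair of libraries, the chi-square per degree of freedom between libraries of a group, which grows with depth, was lowest for N2 and N6 (6.12). In NRK-52E at pH 6.0 it was 9.11 between N4 and N7, 39.4 and 31.2 between N3 and each of N4 and N7, and 43.7, 92.2 and 71.5 between N8 and each of N3, N4 and N7. The pairs of N8 with N4 and N7 were the highest in any group, followed by N11 and N16 (62.1) and N13 and N14 (53.2), and the pH effects in NRK-52E are given without N8 as well.

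The labelled cell types were checked against marker lists. In NRK-49F, 14 of 17 fibroblast markers had a mean of at least 1 FPM, led by Col1a1 with 7246 FPM. In NRK-52E, 12 of 17 epithelial markers had a mean below 1 FPM, among them Epcam, Krt18 and Cdh16, and Cdh1 averaged 1.62 FPM at pH 7.4 and 0.31 FPM at pH 6.0. Those above 1 FPM included Krt8 (430.4 and 316 FPM at pH 7.4 and 6.0), Krt7, Ocln and Tjp3, and Krt8 was also high in NRK-49F at pH 7.4 (848 FPM). Of 11 proximal tubule markers, 8 were below 1 FPM in NRK-52E, and Slc34a1 and Hnf4a had no count there, so the NRK-52E libraries lack most defining tubule markers. Fibroblast markers were also present in NRK-52E, led by Col3a1 with 4426 FPM. Of the 17, 6 were below 1 FPM there (Pdgfra, Thy1, Dcn, Lum, Fap and Prrx1). At pH 7.4 and 6.0, Acta2 averaged 195 and 106 FPM in NRK-52E and 2.34 and 0.46 FPM in NRK-49F. Col3a1 averaged 6221 and 2630 FPM in NRK-52E and 458 and 53.9 FPM in NRK-49F. Col1a1, Pdgfra, Pdgfrb, Lum, Twist1, Twist2, Prrx1, Postn, Vim and S100a4 had higher means in NRK-49F at either pH. For Col5a1 and Cspg4 the order of the lines changed with the pH. Thy1 was at 0 in the libraries of both lines, and Pecam1 was not analysed here.

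Several marker lists moved with the pH. The summed fibroblast markers were 7392 to 7902 FPM at pH 7.4 and 2574 to 3851 FPM at pH 6.0 in NRK-52E, and 16267 to 17869 and 11485.5 to 13157 FPM in NRK-49F. Of the fibroblast markers tested, 9 of 12 were called lower in NRK-52E and 6 of 14 in NRK-49F, with 0 higher in either line. Over all genes tested, 28.2% were called higher and 28.5% lower in NRK-52E, and 18.4% and 19.4% in NRK-49F. The fibroblast sum in NRK-49F fell mostly with Vim (means of 7108 and 2588 FPM) and S100a4, while Col1a1 had means of 6205 and 8288 FPM. The summed epithelial markers were 488 to 561 and 360.3 to 431 FPM in NRK-52E, and 789 to 954 and 202.5 to 224 FPM in NRK-49F. Both sums are mostly Krt8, and of 6 epithelial markers tested in each line, 1 was called higher and 5 lower in NRK-52E, and 1 higher and 2 lower in NRK-49F. Proximal tubule markers, led by Aqp1 in NRK-52E and by Ggt1 in NRK-49F, summed to 56.3 to 74.9 and 26.2 to 36.9 FPM in NRK-52E and to 142 to 196 and 364 to 561 FPM in NRK-49F. The fall in NRK-52E was mostly that of Anpep (means of 28.5 and 1.25 FPM), and the rise in NRK-49F mostly that of Ggt1 (112 and 413 FPM), while Anpep went from 30.1 to 10.9 FPM there. Of the 5 tubule markers tested in each line, 0 were called higher and 2 lower in NRK-52E, and 1 higher and 2 lower in NRK-49F. Endothelial markers, led by Tek in NRK-52E, summed to 36.3 to 45.7 and 7.0 to 9.1 FPM there and to 6.7 to 9.0 and 2.7 to 4.0 FPM in NRK-49F, with Kdr at 0 throughout. Immune markers summed to 2.6 to 3.8 and 5.8 to 8.4 FPM in NRK-52E and to 63.1 to 98.2 and 225 to 263 FPM in NRK-49F, there nearly all of it Cd68, while Ptprc was at 0 in every library. Whether these shifts have a part in the results on the enzymes was not tested, and in bulk RNA fewer cells of a type and less RNA per cell cannot be told apart.

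At pH 6.0, NRK-52E cells had more Cat, Sod1, Sod2, Gpx2 and Gpx4 mRNA and less Sod3 mRNA than at pH 7.4, while Gpx1, Gpx7 and Gpx8 were not called. Of the 9 members tested in NRK-52E, 6 were called, 5 of them higher and 1 lower at pH 6.0, beside 56.7% of all 13735 genes tested (28.2% higher and 28.5% lower), so the share called was not far from that of all genes. Without N8, 6 members were called in NRK-52E as well, with log2 fold changes of 1.50 for Cat, 0.93 for Sod1, 0.81 for Sod2, −1.25 for Sod3, 2.21 for Gpx2 and 1.94 for Gpx4. In NRK-49F cells, Cat and Sod2 were higher at pH 6.0 and Gpx7 and Gpx8 lower. There, 4 of the 8 members tested were called, 2 higher and 2 lower, beside 37.8% of 13339 genes (18.4% higher and 19.4% lower). Over the 9 members tested in NRK-52E the median log2 fold change came to 0.85, and over the 8 tested in NRK-49F to −0.09. Gpx2, with the largest rise in NRK-52E, was not tested in NRK-49F, so these medians cover different members. The medians of all genes tested were 0.00 in either line. The pH effects of the lines differed for 4 of the 9 members tested, with a more positive effect in NRK-52E for Sod1, Gpx4 and Gpx7 and a more negative one for Sod3, beside 36.9% of 14679 genes (19.3% more positive and 17.5% more negative). When libraries were scaled by their totals in place of TMM, the median of all genes tested moved to −0.21 in NRK-52E and to −0.25 for the difference between the lines, and the share of called genes that were higher moved from 49.7% to 37.6% in NRK-52E and from 52.4% to 33.8% for that difference.

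**Figure D1:**
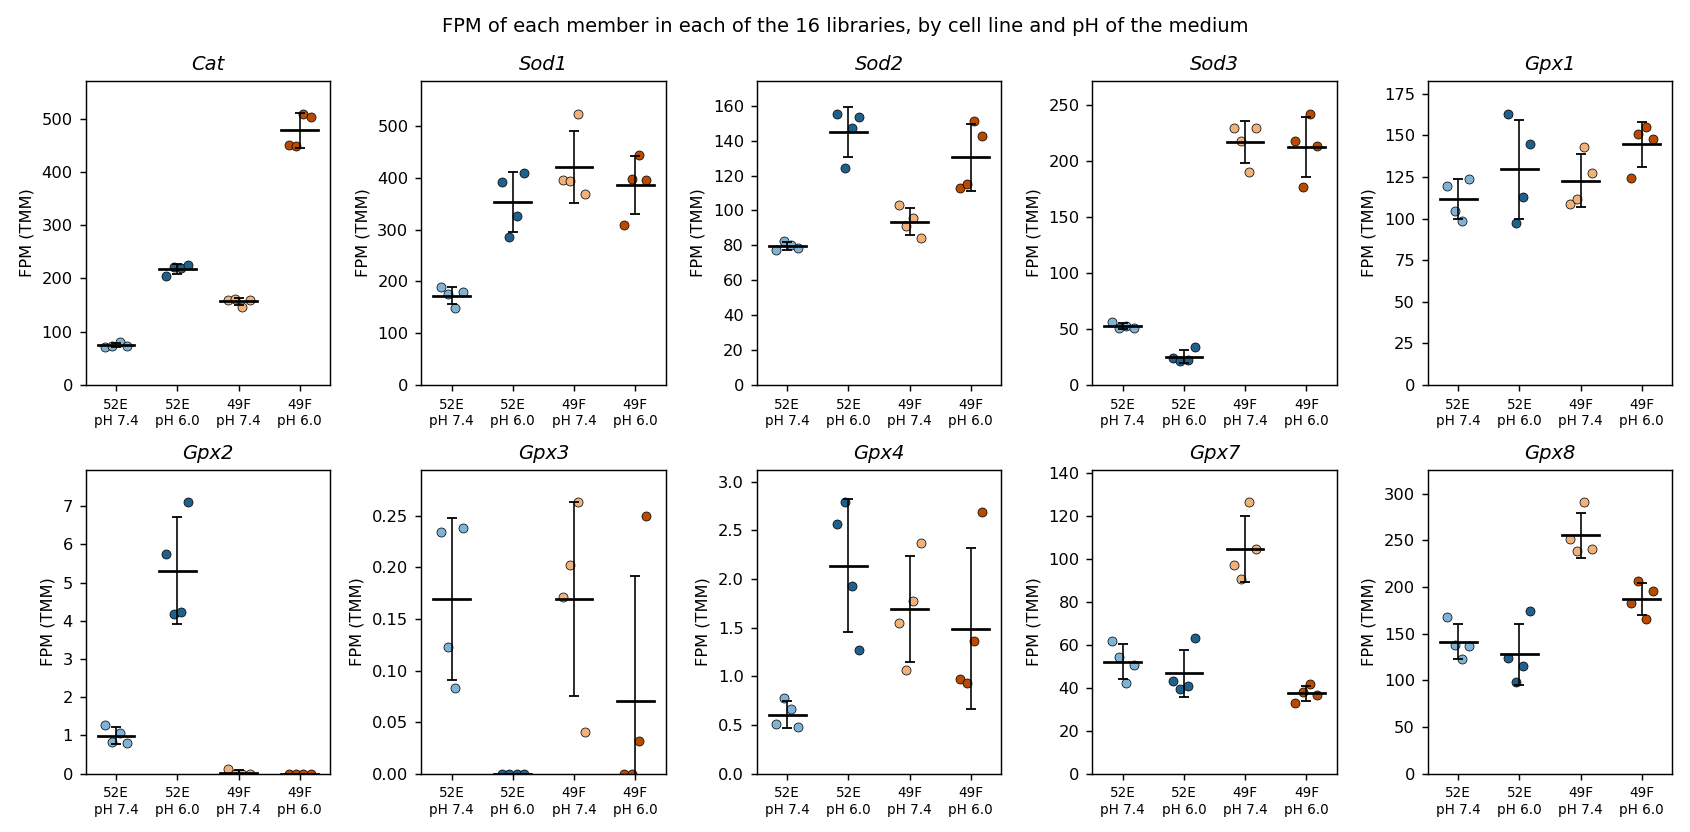
FPM (linear axis from 0) of the 10 members in each library, in panels by gene and columns by cell line and pH; points are libraries, long bars means and whiskers SD (n = 4). Cat separates the pH groups in both cell lines, with means of 74.8 and 218 FPM in NRK-52E and 157 and 478 FPM in NRK-49F, whereas Sod1 and Sod3 separate them in NRK-52E and overlap in NRK-49F.

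Catalase mRNA was higher at pH 6.0 in every library of both lines. In NRK-52E, Cat stood at 72.2, 73.3, 79.9 and 73.9 FPM in N1, N2, N5 and N6 at pH 7.4 and at 205, 222, 219 and 225 FPM in N3, N4, N7 and N8 at pH 6.0. In NRK-49F, the values were 160.0, 162, 147 and 159 FPM in N9, N10, N13 and N14 at pH 7.4 and 451, 448, 509 and 504 FPM in N11, N12, N15 and N16 at pH 6.0. The pH groups did not overlap in either line, and the 4 groups followed each other without overlap from NRK-52E at pH 7.4 through NRK-49F at pH 7.4 and NRK-52E at pH 6.0 to NRK-49F at pH 6.0. The rise was 2.87-fold in NRK-52E (SE 0.08 on the log2 scale, edgeR quasi-likelihood test with Benjamini-Hochberg adjusted p = 1.4e-07). It was 3.01-fold in NRK-49F (log2 fold change 1.59, SE 0.09, edgeR adjusted p = 9.25e-08). The difference between the effects was −0.08 (SE 0.11, edgeR adjusted p = 0.558), with a 95% interval of −0.29 to 0.13 on the log2 scale, and was −0.19 within number 21. Within the numbers 21 and 22 of NRK-52E the log2 fold change of Cat was 1.51 each, and the numbers 20 and 21 of NRK-49F gave 1.48 and 1.71. In the newer assembly GRCr8 the gene overlaps a pseudogene locus, and fragments shared with it cannot be told apart.

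Among the superoxide dismutases, Sod1 and Sod2 were called higher and Sod3 lower at pH 6.0 in NRK-52E. Sod2 was also called higher in NRK-49F, a call that was lost in some settings given below. Sod1, the cytosolic copper-zinc enzyme, stood at 189, 175, 148 and 179 FPM in NRK-52E at pH 7.4 and at 392, 285, 326 and 409 FPM at pH 6.0. In NRK-49F, it stood at 395, 394, 524 and 369 FPM at pH 7.4 and at 308, 397, 443 and 396 FPM at pH 6.0, each in the order of the library names given above. The NRK-52E groups did not overlap, the NRK-49F groups overlapped widely, and N13 lay above all other libraries. Sod1 rose 2.03-fold in NRK-52E (log2 fold change 1.02, SE 0.13, edgeR adjusted p = 5.75e-05), and its log2 fold change in NRK-49F was −0.14 (SE 0.14, edgeR adjusted p = 0.41, exact permutation p = 0.571). The effects differed by 1.14 (SE 0.20, edgeR adjusted p = 1.17e-04). Within the numbers 21 and 22, the log2 fold change in NRK-52E was 0.86 and 1.15, and NRK-49F gave −0.16 and −0.11 within 20 and 21. Within number 21, which both lines share, the difference between the effects was 0.97 and was no longer called (edgeR adjusted p = 0.0267, 2 libraries per group).

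Sod2, the mitochondrial manganese enzyme, had 77.4, 82.4, 80.0 and 78.8 FPM in NRK-52E at pH 7.4 and 155, 124, 147 and 153 FPM at pH 6.0. In NRK-49F it had 103, 91.4, 95.7 and 84.2 FPM at pH 7.4 and 113, 115, 151 and 143 FPM at pH 6.0. All libraries at pH 6.0 lay above those of the same line at pH 7.4, and in NRK-49F the libraries N15 and N16 lay well above N11 and N12. The rise was 1.80-fold in NRK-52E (log2 fold change 0.85, SE 0.10, edgeR adjusted p = 2.1e-05) and 1.38-fold in NRK-49F (log2 fold change 0.46, SE 0.11, edgeR adjusted p = 3.7e-03). The difference of 0.37 (SE 0.15, edgeR adjusted p = 0.0466) did not pass the threshold and was 0.08 within number 21. Within the numbers 21 and 22 the log2 fold change in NRK-52E was 0.77 and 0.90. The numbers 20 and 21 of NRK-49F gave 0.23 and 0.69, and neither was called. The call in NRK-49F was also lost without N10 (0.46), without N14 (0.41) or without N15 (0.40).

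Sod3, the secreted copper-zinc enzyme, had 56.0, 50.9, 52.8 and 50.6 FPM in NRK-52E at pH 7.4 and 24.3, 21.2, 22.1 and 33.9 FPM at pH 6.0. In NRK-49F it had 229, 218, 190.2 and 229 FPM at pH 7.4 and 218, 176, 242 and 213 FPM at pH 6.0. Every NRK-49F library lay far above every NRK-52E library, and within NRK-52E all libraries at pH 6.0 lay below those at pH 7.4, with N8 the highest of them. Sod3 was 2.09-fold lower at pH 6.0 in NRK-52E (log2 fold change −1.07, SE 0.15, edgeR adjusted p = 1.14e-04). In NRK-49F the log2 fold change was −0.04 (SE 0.10, edgeR adjusted p = 0.736) with overlapping groups, and the effects differed by −1.04 (SE 0.18, edgeR adjusted p = 1.51e-04). In NRK-52E the value was −1.27 within number 21 and −0.90 within number 22, where it was not called (edgeR adjusted p = 0.0307, 2 libraries per group). The numbers 20 and 21 of NRK-49F gave −0.18 and 0.10, and the difference between the effects was −1.36 within number 21.

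**Figure D2:**
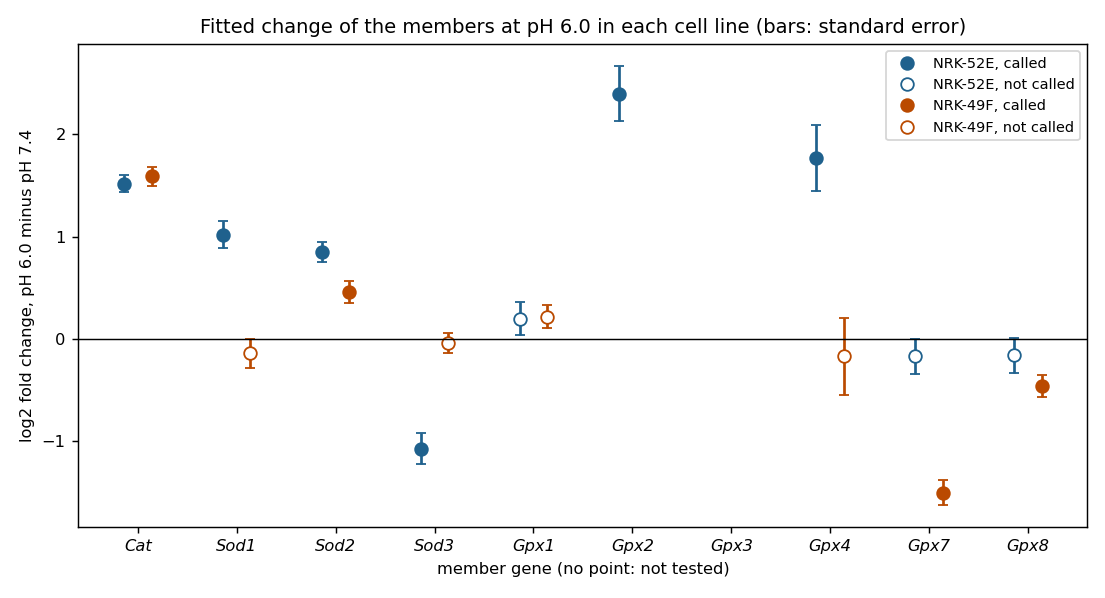
Log2 fold change at pH 6.0 against pH 7.4 (vertical axis) of each member tested, for NRK-52E (blue) and NRK-49F (orange); whiskers are the SE of edgeR's fit, and filled points were called. Cat rose 2.87-fold and 3.01-fold in the lines, Sod3 is called lower in NRK-52E (−1.07), and Gpx7 and Gpx8 are called lower in NRK-49F (−1.50 and −0.46).

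Of the selenocysteine enzymes, Gpx1, the abundant cytosolic peroxidase, was not called in any comparison. It had 119.8, 104, 98.6 and 124 FPM in NRK-52E at pH 7.4 and 163, 97.4, 113 and 145 FPM at pH 6.0. In NRK-49F it had 109, 112, 143 and 128 FPM at pH 7.4 and 125, 151, 155 and 148 FPM at pH 6.0. All 4 groups overlapped with their neighbours, and N3 and N8 were the highest libraries of NRK-52E at pH 6.0, as they were for Sod1, Sod2, Sod3, Gpx2, Gpx7 and Gpx8. The log2 fold change was 0.20 in NRK-52E (95% interval −0.12 to 0.52, edgeR adjusted p = 0.293, and 0.13 without N8), turning to −0.02 with library totals as the scale, and 0.22 in NRK-49F (95% interval 0.00 to 0.44, edgeR adjusted p = 0.111). It was 0.18 and 0.20 within the numbers 21 and 22 of NRK-52E, and 0.32 and 0.14 within 20 and 21 of NRK-49F.

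Gpx2, the peroxidase known from the epithelium of the gut, was found at low levels in NRK-52E and was nearly absent from NRK-49F. At pH 7.4 it had 27, 20, 26 and 17 counts in N1, N2, N5 and N6, which is 1.26, 0.819, 1.08 and 0.809 FPM. At pH 6.0 it had 94, 93, 103 and 151 counts in N3, N4, N7 and N8, which is 5.75, 4.18, 4.22 and 7.10 FPM. In NRK-49F the only counts were 2 in N9, and the 7 other libraries had 0. The NRK-52E groups did not overlap, and N8 was the highest library at pH 6.0. The rise in NRK-52E was 5.27-fold (log2 fold change 2.40, SE 0.27, edgeR adjusted p = 1.88e-05), the largest among the members tested, and it was 2.21 within number 21 and 2.56 within number 22 on the log2 scale. NRK-52E was above NRK-49F by a factor of 38.5 at pH 7.4 (90 against 2 counts, exact 95% counting interval 10.4 to 323). At pH 6.0 it was at least 175-fold higher (441 against 0 counts, with a floor of 3 counts over the NRK-49F group). These limits cover counting error alone. The model's log2 difference between the lines at pH 7.4 was 5.05, and it ranged from 4.57 to 7.46 with 1 library left out. Gpx2 did not pass the filter on low counts in NRK-49F, and the difference between the pH effects was not called (edgeR adjusted p = 0.0278).

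Gpx3, the secreted plasma enzyme, was at the limit of detection. It had 5, 3, 2 and 5 counts in the NRK-52E libraries at pH 7.4 and 0 in each of the 4 at pH 6.0. In NRK-49F it had 3, 4, 4 and 1 counts at pH 7.4 and 0, 0, 1 and 8 counts at pH 6.0. The NRK-52E groups did not overlap, but the 15 counts against 0 did not pass the filter of the model, and in NRK-49F the groups overlapped.

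Gpx4, which reduces lipid peroxides in membranes, was also counted rarely in this table, with 10 to 86 counts per library. In NRK-52E it had 11, 19, 16 and 10 counts at pH 7.4 (0.515, 0.778, 0.663 and 0.476 FPM) and 42, 62, 47 and 27 counts at pH 6.0 (2.57, 2.79, 1.93 and 1.27 FPM). In NRK-49F it had 27, 21, 27 and 60 counts at pH 7.4 (1.54, 1.06, 1.78 and 2.37 FPM) and 22, 14, 42 and 86 counts at pH 6.0 (0.974, 0.928, 1.36 and 2.69 FPM). All NRK-52E libraries at pH 6.0 lay above those at pH 7.4, whereas the NRK-49F groups overlapped, with N14 and N16 the highest of their groups. The rise was 3.40-fold in NRK-52E (log2 fold change 1.77, SE 0.32, edgeR adjusted p = 5.38e-04) and was 1.99 within number 21 and 1.45 within number 22 on the log2 scale, the latter not called (edgeR adjusted p = 0.0443). In NRK-49F the log2 fold change was −0.17 (SE 0.38, edgeR adjusted p = 0.73), with −0.44 and −0.06 within the numbers 20 and 21. The effects differed by 1.93 (SE 0.53, edgeR adjusted p = 5.35e-03), a call that was lost with library totals as the scale (1.69), within number 21 (2.06) and when any 1 of 8 libraries was left out (N1, N3, N4, N6, N11, N12, N14 or N15, 1.70 to 1.87). Gpx4 is known as a gene that most cells use, and whether the rn6 gene model collects all of its fragments was not tested.

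The cysteine enzymes of the endoplasmic reticulum moved with pH in NRK-49F. Gpx7 had 97.1, 90.6, 126 and 104 FPM in NRK-49F at pH 7.4 and 32.8, 38.1, 41.7 and 36.9 FPM at pH 6.0. In NRK-52E it had 61.9, 54.2, 42.1 and 50.6 FPM at pH 7.4 and 43.4, 39.3, 41.0 and 63.0 FPM at pH 6.0. The NRK-49F groups lay far apart, and the NRK-52E groups overlapped, with N8 standing above the other libraries at pH 6.0. Gpx7 was 2.83-fold lower at pH 6.0 in NRK-49F (log2 fold change −1.50, SE 0.12, edgeR adjusted p = 1.43e-06), the largest fall among the members tested by the model in either line, and the value was −1.41 within number 20 and −1.57 within number 21. In NRK-52E the log2 fold change was −0.17 (SE 0.17, edgeR adjusted p = 0.383), and the effects differed by 1.31 (SE 0.21, edgeR adjusted p = 6.92e-05), or by 1.05 within number 21. In the newer assembly GRCr8 the gene overlaps Tut4, named here after its values were seen, and the counting options given in the methods name none for strand. The log2 fold change of Tut4 at pH 6.0 was 0.05 in NRK-49F and −0.05 in NRK-52E (neither called). Tut4 was called higher in NRK-52E than in NRK-49F at pH 7.4 (0.86) and at pH 6.0 (0.67). Whether its fragments have a part in the values of Gpx7 was not tested.

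Gpx8, a membrane protein of the same compartment, had 252, 239, 291 and 241 FPM in NRK-49F at pH 7.4 and 182, 206, 166 and 195 FPM at pH 6.0. In NRK-52E it had 168, 138, 123 and 137 FPM at pH 7.4 and 124, 97.7, 115 and 175 FPM at pH 6.0. The NRK-49F groups did not overlap and the NRK-52E groups did, with N8 again the highest library at pH 6.0. Gpx8 was 1.38-fold lower at pH 6.0 in NRK-49F (log2 fold change −0.46, SE 0.11, edgeR adjusted p = 3.01e-03). This call was lost in a fit of all 16 libraries (−0.46), within number 20 (−0.33), within number 21 (−0.57) and without N15 (−0.40), and with N15 left out 2 members were called in NRK-49F in place of 4. In NRK-52E the log2 fold change was −0.16 (SE 0.17, edgeR adjusted p = 0.431). The difference between the effects, 0.29 (SE 0.20, edgeR adjusted p = 0.253), did not pass the threshold and was 0.08 within number 21. In NRK-52E the values of Gpx7 and Gpx8 were −0.53 and −0.50 within number 21 and turned to 0.15 and 0.14 within number 22, which holds N8. Without N8 they were −0.37 and −0.36, and none of these was called.

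At pH 7.4, NRK-52E cells had less Cat, Sod1, Sod3, Gpx4, Gpx7 and Gpx8 mRNA than NRK-49F cells and more Gpx2 mRNA, while Sod2 and Gpx1 were not called. Of the 9 members tested, 7 were called, 1 higher and 6 lower in NRK-52E, beside 66.6% of 14026 genes (33.3% higher and 33.3% lower). The cell lines were compared within the co-culture, so the line and its compartment cannot be told apart. Sod3 differed most among the well-counted members, 3.89-fold lower in NRK-52E (log2 fold change −1.96, SE 0.08, edgeR adjusted p = 9.85e-10). Sod1 was 2.30-fold lower (log2 −1.20, SE 0.12), Cat 1.98-fold (−0.99, SE 0.07), Gpx7 1.90-fold (−0.92, SE 0.13) and Gpx8 1.71-fold (−0.77, SE 0.10). Gpx4 was 2.61-fold lower (log2 −1.38, SE 0.31, edgeR adjusted p = 1.62e-03), and this call was lost with the second number as a covariate (−1.61) and within number 21 (−1.60). Only number 21 occurs in both lines, so the covariate fit also takes the line difference from number 21 and is no separate check. Within number 21, Gpx2 was called higher as well, and the other called values were −1.90 for Sod3, −1.23 for Sod1, −1.0 for Cat, −0.92 for Gpx7 and −0.73 for Gpx8. Sod2 lay lower in every NRK-52E library than in every NRK-49F library, but its log2 fold change of −0.15 (SE 0.08, edgeR adjusted p = 0.0956) did not pass the model's threshold and turned to 0.16 with library totals as the scale. With these totals the median of all genes tested moved to 0.335, the share of called genes higher in NRK-52E to 65.7% from a level equal to that of lower ones, and Gpx1 from −0.06 to 0.25.

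At pH 6.0, 4 of the 9 members tested were called, with Gpx2 higher and Cat, Sod3 and Gpx8 lower in NRK-52E. Over all 13796 genes tested, 59.8% were called (28.6% higher and 31.3% lower). Whether the count of members called differs between the pH values was not tested. Sod3 was 8.45-fold lower (log2 fold change −3.08, SE 0.17, edgeR adjusted p = 1.01e-08) and Cat 2.22-fold lower (log2 fold change −1.15, SE 0.10, edgeR adjusted p = 5.47e-07), with −3.34 and −1.26 within number 21. Sod1, at −0.14 (SE 0.15, edgeR adjusted p = 0.412), and Gpx7, at 0.31 (SE 0.16, edgeR adjusted p = 0.104), were not called at this pH, and their groups overlapped. Gpx8 was called at −0.57 (SE 0.16, edgeR adjusted p = 8.08e-03) although its groups overlapped, and the call was lost with DESeq2's size factors (−0.53), with library totals (−0.42), with the second number as a covariate (−0.71) and when any 1 of 6 libraries was left out (N3, N4, N7, N11, N12 or N16, −0.58 to −0.43), while within number 21 it was called (−0.72). With library totals the median of all genes tested moved to 0.12 and Sod1 to 0.00, and Sod2 turned from 0.14 to −0.08 with the second number as a covariate.

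The order of the 4 groups differed between the members. For Sod1, NRK-49F at both pH values and NRK-52E at pH 6.0 overlapped above NRK-52E at pH 7.4. Sod2 was highest in NRK-52E and NRK-49F at pH 6.0, which overlapped, followed without overlap by NRK-49F and then NRK-52E at pH 7.4. Sod3 was highest in the overlapping groups of NRK-49F, followed by NRK-52E at pH 7.4 and then at pH 6.0. For Gpx4 the NRK-52E group at pH 7.4 lay below the others, which overlapped with their neighbours in the order of means. For Gpx7 and Gpx8 the NRK-49F group at pH 7.4 lay above the others, whose neighbours overlapped.

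For each member with at least 10 FPM in a group, the genes whose log2(FPM + 1) followed it most closely over the 16 libraries were looked up among 9810 candidates that also reached 10 FPM, with Pearson's r as the measure of likeness. The libraries fall into 4 groups, so r reflects group levels as well as single libraries and is a description without a test. Closest to Cat were Entpd5 (r = 0.988) and Slc25a37 (0.985), a mitochondrial iron importer. Sod1 was followed most closely by Rps23 (0.991) and Rps21 (0.983), which encode ribosomal proteins, and Sod2 by RT1.A2 (0.962) and Sft2d1 (0.959). For Sod3 the closest genes were Prkar2b (0.993) and Plekhn1 (0.993), for Gpx7 Phax (0.972) and Cyth2 (0.969), and for Gpx8 Washc3 (0.979) and Ap3s1 (0.970). Gpx1 had no gene above Tfam (0.835) and Cisd1 (0.812). Ranking by Spearman's correlation gave other genes in most cases, with 1 of the 2 kept for Sod2 and for Gpx7 and 0 for the rest.

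Promoter windows of RefSeq (build GRCr8, 250 bases before to 50 bases after each gene's start) were available for 8 of the 10 members, not for Sod3 and Gpx8, with 3 windows for Gpx4. They were searched on both strands for TGACNNNGC, the core of the antioxidant response element bound by Nrf2, for CCAAT and for GGGCGG, motifs chosen after the expression values were seen, and no matches of different motifs overlapped. TGACNNNGC was found in Gpx2 and Sod2 and in 12.1% of all 33469 windows. CCAAT was found in Cat, Sod1, Gpx2, Gpx3 and Gpx4 and in 37.5% of all windows, and GGGCGG in Sod1, Sod2, Gpx1, Gpx3, Gpx4 and Gpx7 and in 33.1%. The window of Cat held 5 matches to CCAAT, the most of any member and a number reached in 0.218% of windows. For GGGCGG the most was 4, in Gpx4, a number reached in 4.64% of windows. These windows were picked for having the most matches, so the shares are not those of a window chosen beforehand. A match describes the letters and shows no binding. The windows of Gpx2, with the largest rise in NRK-52E, of Sod2 and of Cat, the members called higher in both lines, are shown 5′ to 3′ on the strand of the gene. Capitals mark TGACNNNGC, read on the opposite strand, in Gpx2 (chr6:101229984-101230283, minus strand) and Sod2 (chr1:50050119-50050418, minus strand), and CCAAT or its reverse complement in Cat (chr3:110329477-110329776, minus strand).
Gpx2: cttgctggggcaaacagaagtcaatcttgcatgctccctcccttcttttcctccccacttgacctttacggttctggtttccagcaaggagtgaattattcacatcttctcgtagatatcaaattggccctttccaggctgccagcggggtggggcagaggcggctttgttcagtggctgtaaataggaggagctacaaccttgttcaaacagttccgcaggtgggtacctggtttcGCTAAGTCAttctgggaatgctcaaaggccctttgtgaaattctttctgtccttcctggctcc
Sod2: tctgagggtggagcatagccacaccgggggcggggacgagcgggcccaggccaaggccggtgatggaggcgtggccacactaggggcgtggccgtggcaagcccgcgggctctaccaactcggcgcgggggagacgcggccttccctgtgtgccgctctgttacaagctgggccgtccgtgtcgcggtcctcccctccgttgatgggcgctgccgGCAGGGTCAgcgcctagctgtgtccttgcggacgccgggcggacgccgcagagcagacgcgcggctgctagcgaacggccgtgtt
Cat: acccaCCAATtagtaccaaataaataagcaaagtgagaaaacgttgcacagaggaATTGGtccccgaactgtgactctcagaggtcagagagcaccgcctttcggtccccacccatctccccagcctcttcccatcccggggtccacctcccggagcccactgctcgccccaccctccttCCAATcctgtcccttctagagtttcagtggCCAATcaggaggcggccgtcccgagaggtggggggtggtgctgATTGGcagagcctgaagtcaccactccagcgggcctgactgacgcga
In Gpx2 the match lies 5 to 13 bases before the start, and in Sod2 27 to 35 bases before it. Of the 5 matches in Cat, 4 lie before the start and 1 after it.

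Genes that supply, feed or parallel these enzymes were described by 10 lists with 143 genes in the table, by the count called at pH 6.0 and the median log2 fold change, beside the same over all genes tested (56.7% and 0.00 in NRK-52E, 37.8% and 0.00 in NRK-49F). No list was tested as a set. Among sources of hydrogen peroxide and superoxide, 5 of 19 genes tested were higher and 6 lower in NRK-52E (median 0.03), and 5 of 17 were higher and 2 lower in NRK-49F (median 0.28). Ero1a, a thiol oxidase of the endoplasmic reticulum that yields hydrogen peroxide, rose in both lines (1.51 ± 0.15 and 2.14 ± 0.15, log2 ± SE), and xanthine dehydrogenase Xdh fell in NRK-52E (−2.24 ± 0.13), as did the peroxisomal oxidase Acox3 (−1.39 ± 0.16). Both effects differed from those in NRK-49F (interaction −2.04 and −1.36, both called). Of 6 peroxiredoxins, thiol peroxidases that share substrates with catalase, 3 were higher in NRK-52E (median 0.78, Prdx5 at 1.97 ± 0.16) and 3 in NRK-49F (median 0.30, Prdx1 at 1.45 ± 0.13), and 0 were lower. The other glutathione peroxidase genes Gpx5 and Gpx6 were not tested in either line.

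A list of genes that carry or bind copper, manganese and other metals includes Ccs, but also Cox17, the copper chaperone of cytochrome oxidase, and the iron importer Slc25a37. Of its genes, 8 of 11 were higher and 0 lower in NRK-52E (median 0.80), and 4 were higher and 2 lower of 11 in NRK-49F (median 0.11). Within the numbers 21 and 22 of NRK-52E, 5 and 2 of its genes were called in place of 8. Ccs, the copper chaperone that loads Sod1, rose in NRK-52E (0.93 ± 0.12), as Sod1 did, whereas its value of −0.22 in NRK-49F was not called (interaction 1.14, called). The copper importer Slc31a1 rose in both lines (0.88 ± 0.18 and 1.29 ± 0.12), and the metallothionein Mt2A fell in NRK-49F (−1.47 ± 0.16). Of the genes for selenium supply and selenocysteine insertion, 4 of 12 were higher and 3 lower in NRK-52E (median 0.07), and 3 were higher and 2 lower of 12 in NRK-49F (median 0.11). Lrp8, a receptor for selenoprotein P, rose in both lines (3.34 ± 0.21 and 2.78 ± 0.11), and Selenop itself fell in NRK-49F (−2.83 ± 0.28, means of 54.9 and 7.67 FPM). It was also called lower in NRK-52E (−3.28 ± 0.82), at means of 0.86 and 0.10 FPM. Of the other selenoprotein genes, 7 of 14 were higher and 2 lower in NRK-52E (median 0.43), and 6 were higher and 1 lower of 14 in NRK-49F (median 0.29). Thioredoxin reductase Txnrd1 rose in both lines (2.40 ± 0.17 and 1.59 ± 0.09).

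A list of genes for glutathione, the electron donor of most glutathione peroxidases, holds enzymes of its synthesis and recycling, transporters, and Chac1 and Ggt1, which break glutathione down. Of its genes, 6 of 9 were higher and 0 lower in NRK-52E (median 0.84) and likewise 6 of 9 and 0 in NRK-49F (median 1.13). The breakdown genes, named here after their values were seen, are among those called higher, Chac1 in NRK-52E (log2 2.66) and Ggt1 in NRK-49F (1.87). Gclm, the modifier subunit of the enzyme that starts glutathione synthesis, rose from 24.3 ± 1.46 to 197 ± 26.0 FPM (mean ± SD, 4 libraries each) in NRK-52E, and NRK-49F went from 10.8 ± 2.57 to 45.1 ± 2.40 FPM. Of the genes for peroxisome assembly, which import catalase among other enzymes, 3 of 17 were higher and 3 lower in NRK-52E (median 0.00), and 3 of 18 were higher and 4 lower in NRK-49F (median −0.07). Without N8, 10 were called in NRK-52E in place of 6, and without N15, 4 were called in NRK-49F in place of 7. Pex16 rose in NRK-52E (1.65 ± 0.11), with a difference of 1.57 from NRK-49F that was called. Pex11a fell in NRK-52E (−2.23 ± 0.19, means of 7.41 and 1.61 FPM) and rose in NRK-49F (0.85 ± 0.16), a difference of −3.10 that was also called. Of the genes of lipid peroxidation and ferroptosis, the process that Gpx4 restrains, 4 of 14 were higher and 4 lower in NRK-52E (median −0.21), and 1 was higher and 1 lower of 14 in NRK-49F (median 0.04). Aifm2 rose in NRK-52E (1.25 ± 0.08), and the transferrin receptor Tfrc fell there (−2.74 ± 0.09), with differences of 1.16 and −2.79 from NRK-49F that were called. Dhcr7 (1.06 ± 0.17) and Acsl4 (0.81 ± 0.08) rose in NRK-52E as well. Dhodh (−2.29 ± 0.19) and Mboat1 (−2.19 ± 0.23) of this list also fell in NRK-52E. Of the regulators, 3 of 16 were higher and 2 lower in NRK-52E (median −0.03), and 3 of 17 were higher and 1 lower in NRK-49F (median 0.06). Without N8, 8 regulators were called in NRK-52E in place of 5. Nfe2l2, the gene of Nrf2, rose in NRK-52E (0.91 ± 0.11) and was called lower in NRK-49F (−0.37 ± 0.10), a fall that was no longer called when any 1 of N9, N10, N11, N12, N13, N15 or N16 was left out (−0.39 to −0.33). Its inhibitor Keap1 was not called in either line (0.05 ± 0.12 and 0.03 ± 0.09), and the former turned to −0.15 with library totals. Of the 153 names in these lists, 143 were found in the count table. Names not analysed here include Prodh, Pex19 and Sirt1.

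**Figure D3:**
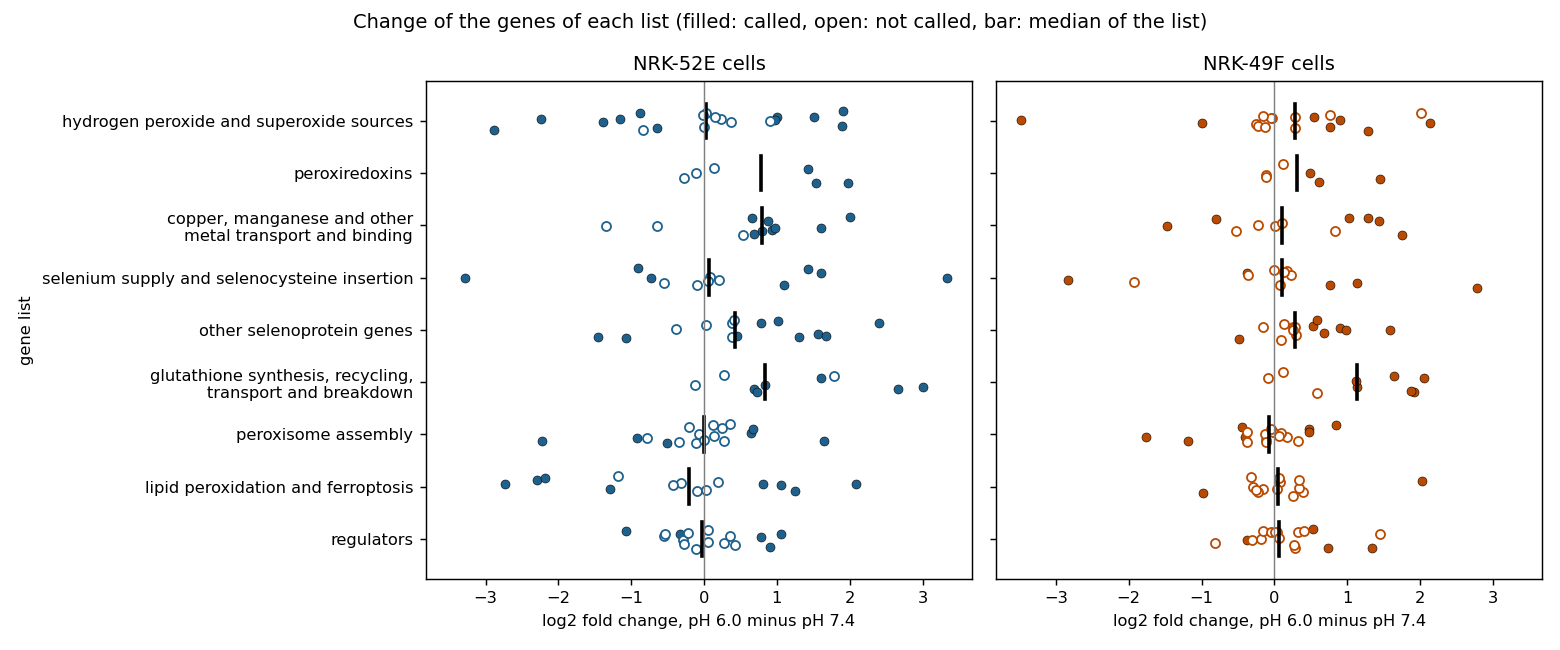
Log2 fold change at pH 6.0 against pH 7.4 (horizontal axis) of the genes tested of each list in NRK-52E and in NRK-49F, with called genes filled and the median of each list as a bar. The medians of the glutathione list lie at 0.84 and 1.13, and those of peroxisome assembly at 0.00 and −0.07.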

How the data were processed

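The deposited values are counts that the authors made from paired reads of 2 × 150 bp of poly(A)-enriched RNA, counted over exons of each gene with featureCounts on the rat genome rn6. Fragments that map to several places were counted at each, and the options given name none for strand, which leaves featureCounts at its unstranded default. The methods of the study name tophat2 as the aligner, and the notes deposited with the data name HISAT2 2.1.0. Library totals were 16201084 to 34784862, and no library was left out. FPM values came from edgeR's cpm function with TMM factors.

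All genes of the table were fitted with edgeR 4.0.16 (limma 3.58.1, quasi-likelihood test, TMM, filterByExpr) and DESeq2 1.42.0 (Wald test, size factors, independent filtering) in R 4.3.3. Each pairwise comparison was fitted on its 8 libraries and the difference between pH effects on all 16. P-values were adjusted over all genes tested by Benjamini-Hochberg, and SE is the absolute log2 fold change over the square root of F. The steps were also run on simulated counts in which few genes, all well counted, were changed. That run does not cover scaling when many genes change, nor genes with few counts. Python 3.11.15 with pandas 2.3.3, NumPy 2.4.6, SciPy 1.17.1 and matplotlib 3.10.9 made the exact permutation tests, counting intervals, promoter searches and plots.

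The members and lists were chosen with earlier results of these data known. Named were the members, Nfe2l2 and Keap1, the genes most like a member and, from each list and line, examples among up to 3 called genes with the largest rise and up to 3 with the largest fall (1 of each for lists of 9 names or fewer), where libraries of the pH groups did not overlap and the higher mean reached 10 FPM. A gene named for one line may have its value in the other line given too, whatever its level there. Other settings tried were scaling by DESeq2's size factors or by library totals, dropping the filter on low counts or asking for 1 CPM in 4 libraries, a single fit of the 16 libraries, DESeq2 alone, edgeR alone, a likelihood-ratio test in edgeR, an FDR threshold of 0.05, a pseudocount of 0.1 FPM, Spearman's correlation, the second number as a covariate, each number alone, and each library left out in turn.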

Additional observations from a re-analysis of the deposited data

Results flagged for a closer look

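In 4 of 38 groups of 4 libraries, the highest library lay apart from the others by more of the group's range than the 95% limit of Dixon's test. Chance gives about 1 in 20 such groups for continuous values (1.9 of 38), which does not hold for Gpx2 and Gpx3, whose groups are made up of 0 and a few counts. Sod1 was at 524 FPM in N13 of NRK-49F at pH 7.4, above the other libraries of its group. Gpx7 was at 63.0 FPM in N8 of NRK-52E at pH 6.0. Gpx2 was at 0.114 FPM in N9 of NRK-49F at pH 7.4, the only library of that line with a count, which rests on 2 counts. Gpx3 was at 0.25 FPM in N16 of NRK-49F at pH 6.0, which rests on 8 counts.

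The pH effect differed between the cell lines in the interaction test for 4 of the 9 members tested, beside 36.9% of 14679 genes. The effect in NRK-52E minus that in NRK-49F was 1.14 for Sod1, −1.04 for Sod3, 1.93 for Gpx4 and 1.31 for Gpx7 on the log2 scale. The calls of Sod1 and Gpx4 were lost within number 21. That of Gpx4 was also lost with library totals and when any 1 of 8 libraries was left out.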

How the results depend on the processing

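Of 914 log2 fold changes of members under alternatives, 861 kept their direction and side of the threshold, 33 lost a call, 2 gained one and 18 reversed, all 18 among values that were not called. For other named genes, 1329 of 1420 kept both, 85 lost a call and 6 reversed, all 6 for Keap1. Of 360 counts of called list genes, 334 stayed within 1.5 times the value reported and 26 did not. The 40 permutation tests kept theirs with a pseudocount of 0.1 FPM. Library totals reversed Gpx1 (−0.02) and Keap1 (−0.15) in NRK-52E, Sod2 (0.16) and Gpx1 (0.25) in the line difference at pH 7.4 and Sod1 (0.00) in that at pH 6.0. The second number as a covariate reversed Sod2 at pH 6.0 (−0.08). The cause was not tested.

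Within single numbers, which leave 2 libraries per group, the reversed values were 0.15 for Gpx7 and 0.14 for Gpx8 (number 22) and −0.17 for Keap1 (number 21) in NRK-52E, 0.10 for Sod3 in NRK-49F, −0.09 for Sod2 in the line difference at pH 6.0 and 0.04 for Gpx1 in the difference between pH effects (number 21). Members called in NRK-49F were 2 within number 20 and 2 within number 21, in place of 4, and those for the difference between pH effects were 2 within number 21. Counts of called list genes in NRK-52E were also mostly lower within number 22. They were 6 in place of 11 for peroxide sources and 2 in place of 7 for selenium supply. Other selenoproteins had 5 in place of 9 and glutathione 3 in place of 6. Lipid peroxidation had 4 in place of 8 and regulators 2 in place of 5, while peroxiredoxins stayed at 3. Peroxisome assembly had 2 in place of 6 within either number.

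With 1 library left out, members called in NRK-49F ranged from 2 to 4. Log2 fold changes that reversed ranged from −0.04 to 0.16 for Keap1 in NRK-52E, and in NRK-49F from −0.02 to 0.06 for Keap1, −0.10 to 0.03 for Sod3 and −0.63 to 0.05 for Gpx4. Gpx1 ranged from −0.12 to 0.02 in the line difference at pH 7.4 and from −0.28 to 0.08 in the difference between pH effects. The cause was not tested. At an FDR of 0.05, the difference between pH effects was also called for Sod2 and Gpx2. No paired analysis was possible because the replicate numbers of the labels are shared by no groups, but a fit with the second number as a covariate was run. Depth limits Gpx2, Gpx3 and Gpx4, with at most 151 counts in a library.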
